A study of Homo sapiens with 4 samples.

Results

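The TGF-beta genes described here are 10 members of this signalling pathway, and each was measured in A549 cells, a line of epithelial origin derived from human lung carcinoma. They are the ligands TGFB1 and TGFB2, the receptors TGFBR1 and TGFBR2, the intracellular factors SMAD3, SMAD7 and SKIL, and the targets PMEPA1, TGFBI and CTGF. Members were taken by exact symbol from the 23340 genes of the raw-count table, and all 10 were found and passed the filter on low counts that left 13143 genes for testing. The members were selected on their counts in these same libraries, since PMEPA1, TGFBI and TGFBR1 had been seen to stand apart between WT and NOCT-KO cells and the others are further genes of the same pathway. Every contrast of a member with WT is therefore given as a description without a test, and only the difference between the knockout clones was tested.

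The libraries of poly-A RNA came from WT A549 cells (2 libraries, WT 1 and WT 2) and from 2 single-cell clones with a knockout of Nocturnin (NOCT), here clone 4 and clone 5. The knockout was made with lentiviral pLenti-CRISPRv2, which delivers Cas9 and a guide RNA, and infected cells were selected with puromycin and diluted to single cells. It is not stated that WT cells passed through these steps, so the knockout, the selection and the choice of a single cell cannot be told apart. All cells were grown in medium with 10% serum and were not treated with a TGF-beta ligand according to the labels. Each clone is 1 library, and nothing says that separate WT cultures were used. For contrasts of a single clone, also clone 4 against clone 5, p-values rest on the spread of the WT pair alone. For WT against NOCT-KO as a pair, they rest on the spread within both groups. Either spread may be technical.

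NOCT, the targeted gene, is listed as CCRN4L and stood at 20.8 CPM (WT 1), 20.1 CPM (WT 2), 29.3 CPM (clone 4) and 15.6 CPM (clone 5), where CPM are counts scaled to library size by TMM. Clone 4 was above and clone 5 below both WT libraries. A Cas9 edit need not lower the transcript, so these levels check neither the knockout nor the labels. Library totals ranged from 36873556 to 41963070 counts. Over the 10047 genes that averaged 5 CPM or more, the log2 ratio had a standard deviation of 0.18 between the WT libraries and 0.52 between the clones. Summed levels of the 8 markers of A549 cells and lung epithelium ranged from 4846 to 7231 CPM, with EPCAM at or near 0. Of the 6 fibroblast markers 3, among them DCN and THY1, were at 0 in every library, and their sum of 7.71 to 30.1 CPM was nearly all LUM and higher in WT. Of the 5 leukocyte markers 3 were at 0, PTPRC among them, and the sum of 12.5 to 21.2 CPM was nearly all CD68. The endothelial sum did not exceed 0.144 CPM, and the neural and kidney sum ranged from 0.444 to 1.85 CPM. In bulk libraries fewer cells of a type and less RNA per cell cannot be told apart.

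TGF-beta ligands are secreted in a latent complex and, once freed, bring the type II receptor TGFBR2 together with the type I receptor TGFBR1, whose kinase phosphorylates SMAD2 and SMAD3. These enter the nucleus with SMAD4 and bind short SMAD boxes in DNA. Among the genes they induce are the pathway's own inhibitors SMAD7, SKIL and PMEPA1 and the matrix proteins TGFBI and CTGF. In epithelial lung cells the pathway is known for growth arrest, for matrix production and for the transition towards a mesenchymal state.

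The promoters of 3 members are printed because their levels went in different directions: CTGF was higher in both clones, TGFBI was lower in both, and TGFB2 differed between the clones. The 250 bases upstream of the RefSeq start were taken from a GRCh38.p14 table. Each matched its own chromosome of hg19 at 1 place on the gene's strand, and other chromosomes were not searched. They are at chr6:132272513-132272762 on the minus strand for CTGF, at chr5:135364427-135364676 on the plus strand for TGFBI and at chr1:218518428-218518677 on the plus strand for TGFB2. Sequences run 5′ to 3′ along the gene's strand, and capitals mark matches on either strand to CAGAC (the SMAD box), TGANTCA (AP-1), GGAATG (TEAD) or TATAAA (the TATA box), none of which overlapped.
CTGF: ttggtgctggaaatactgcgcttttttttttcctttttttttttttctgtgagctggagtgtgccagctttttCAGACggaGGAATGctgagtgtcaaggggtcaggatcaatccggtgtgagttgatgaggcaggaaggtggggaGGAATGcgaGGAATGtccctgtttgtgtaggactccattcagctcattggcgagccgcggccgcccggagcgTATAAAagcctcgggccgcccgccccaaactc
TGFB2: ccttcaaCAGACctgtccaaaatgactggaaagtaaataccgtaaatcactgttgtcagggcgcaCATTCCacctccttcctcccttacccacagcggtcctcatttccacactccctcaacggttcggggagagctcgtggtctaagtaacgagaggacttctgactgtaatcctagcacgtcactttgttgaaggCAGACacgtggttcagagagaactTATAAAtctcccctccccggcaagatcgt
TGFBI: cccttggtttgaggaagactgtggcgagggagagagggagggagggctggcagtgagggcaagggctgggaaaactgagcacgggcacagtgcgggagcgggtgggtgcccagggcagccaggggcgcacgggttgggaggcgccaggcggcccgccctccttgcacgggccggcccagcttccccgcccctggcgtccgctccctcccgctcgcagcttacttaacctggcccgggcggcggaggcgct
The CTGF promoter held 3 TEAD motifs, first bases 169, 104 and 95 upstream of the start, a SMAD box at 177 and a TATA box at 32. At least 3 TEAD motifs were found in 26 of 27305 promoters (0.0952%). The TGFB2 promoter held SMAD boxes at 243 and 53, a TEAD motif on the opposite strand at 185 and a TATA box at 29. At least 2 SMAD boxes were found in 2391 of 27305 promoters (8.76%). In the TGFBI window none of the 4 motifs was found. For the first listed start of each member, the SMAD box was found in 5 of 10 promoters (CTGF, TGFB2, SMAD7, TGFBR1 and SKIL), against 37.8% of all promoters of this length. The AP-1 motif was found in 0 of 10 (6.6% of all), the TEAD motif in 2 (11.9%) and the TATA box in 2 (11.1%). Further starts were listed for some members and are not in these counts. Among them SMAD3 had an AP-1 motif, TGFBR1 a TEAD motif, and PMEPA1 and SMAD3 had SMAD boxes. A match is a run of letters and does not show that a factor binds there.

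Across the 10 members there was no common direction between WT and NOCT-KO cells. Both WT libraries were above both clones for TGFBR1, SKIL, PMEPA1 and TGFBI, and below both clones for TGFB2, TGFBR2, SMAD7 and CTGF. Of all genes tested, 17.9% lay above in this way and 16.4% below. These counts rest on the contrast that chose the members, and nothing is read from them. TGFB1 and SMAD3 overlapped between the groups. The median log2 ratio of WT over NOCT-KO was -0.05 for the members and -0.00 for all genes tested.

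**Figure D1:**
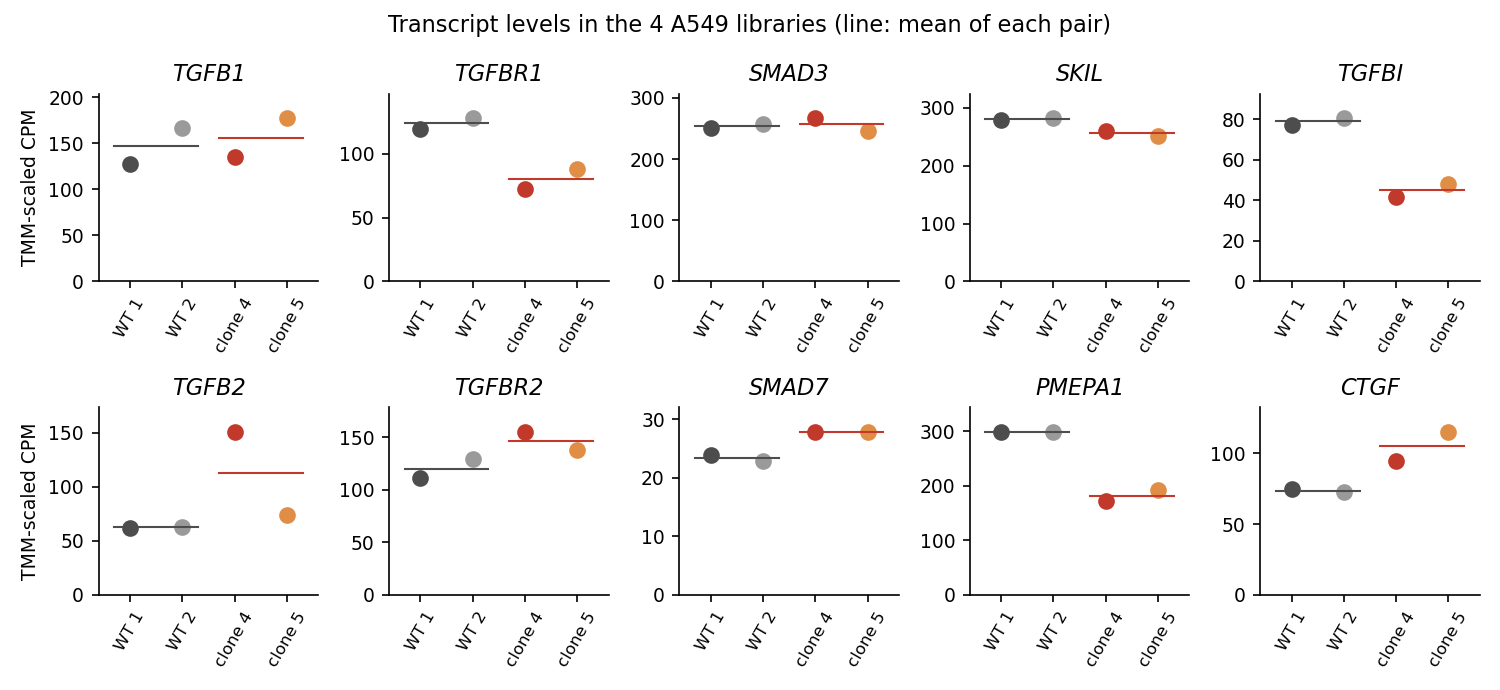
Level of each member in CPM (counts scaled to library size, linear axis from 0) in WT 1, WT 2, clone 4 and clone 5, with 1 point per library and a line at the mean of each pair. PMEPA1, TGFBI and TGFBR1 are lower in both clones, CTGF is higher in both, and TGFB2 is high in clone 4.

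TGFB2, the ligand with the widest range, is on chromosome 1 (hg19, 218518678 to 218617961). Its level was 62.0 CPM (WT 1), 63.1 CPM (WT 2), 151 CPM (clone 4) and 74.1 CPM (clone 5). Clone 4 stood far above the other libraries, and clone 5 was closer to WT. The log2 ratio of WT over clone 4 was -1.27 (standard error 0.09) and that of WT over clone 5 was -0.24 (standard error 0.10). Clone 4 exceeded clone 5 by 1.03 on the log2 scale (standard error 0.11, adjusted p = 2.864e-05 by the quasi-likelihood test of edgeR, adjusted after Benjamini and Hochberg). TGFB2 was the only member of 10 that passed this test, and 13.1% of all genes did. At an unadjusted p under 0.05 there were 4 of 10 members, beside 25.4% of all genes. The call for TGFB2 held under the other scaling, with halved counts, without the low-count filter and with DESeq2 (adjusted p from 5.494e-10 to 0.0188).

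The genes around TGFB2 were also higher in clone 4. Genes of this part of chromosome 1 had earlier been seen higher in clone 4 as a group, so the shift was known beforehand. Of 70 genes within 10 Mb that averaged 5 CPM or more, 67 were above WT in clone 4, with a median log2 ratio of WT over clone 4 of -0.32 (quartiles -0.50 and -0.22). Only 1 of these 70 lay as far from 0 as TGFB2, and this gene, KCNH1, named after its values were seen, was lower in clone 4 (log2 ratio of clone 4 over WT of -2.40). For WT over clone 5 the median of the same neighbours was 0.07, and for clone 4 over clone 5 it was 0.44, where 3 neighbours were as far from 0 as TGFB2. Thus TGFB2 in clone 4 differed from WT by more than nearly all its neighbours, which themselves stood on the same side, and the part of the region in its level was not tested. The neighbours of each other member had medians nearer 0, from -0.03 to 0.09 for WT over clone 4. The highest was that around CTGF (quartiles -0.01 and 0.38), where 13 of 43 neighbours were above WT in clone 4.

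**Figure D2:**
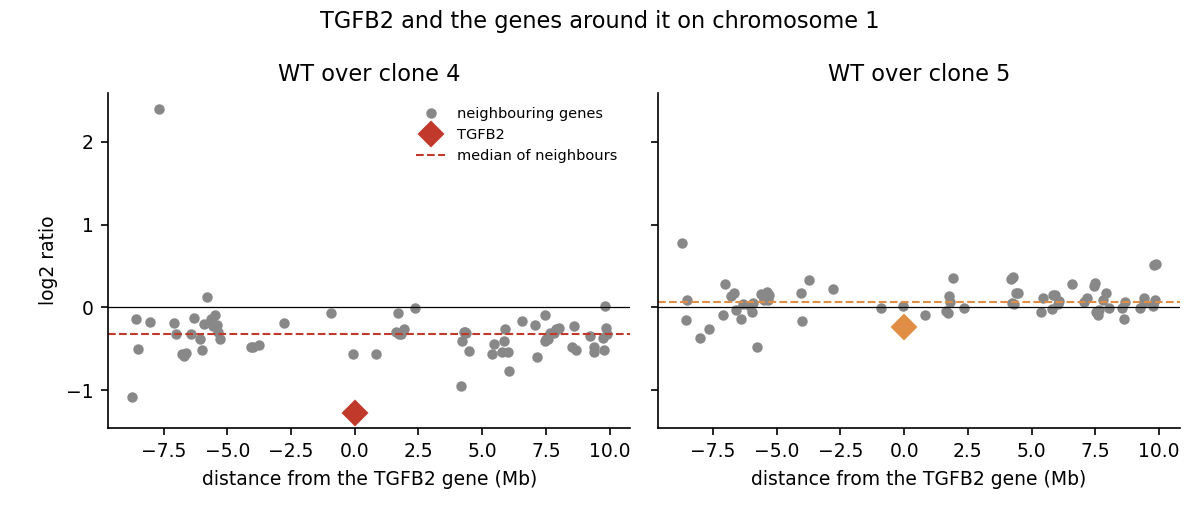
Log2 ratio of WT over clone 4 (left) and WT over clone 5 (right) for the genes within 10 Mb of TGFB2, by distance from TGFB2 in Mb, with a diamond for TGFB2 and a dashed line at the median of the neighbours. In clone 4 the neighbours lie mostly below 0 (median -0.32) and TGFB2 at -1.27, and in clone 5 the neighbours lie around 0.07.

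TGFB1, the most widely expressed ligand of the family, is on chromosome 19 of hg19 from 41807492 to 41859827. It stood at 128 CPM (WT 1), 167 CPM (WT 2), 135 CPM (clone 4) and 177.5 CPM (clone 5). The groups overlapped, and the WT libraries differed from each other by -0.39 on the log2 scale, about as widely as the clones did. For clone 4 over clone 5 the value was -0.39 on the log2 scale (standard error 0.15, edgeR adjusted p = 0.104), and it passed only with halved counts (adjusted p = 0.0492). Per kilobase of exon, the ratio of TGFB2 to TGFB1 was 0.262 and 0.204 in WT 1 and WT 2, against 0.604 (clone 4) and 0.225 (clone 5). Thus TGFB1 was the more abundant ligand transcript in every library, by the smallest margin in clone 4.

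The receptors went opposite ways. TGFBR1, the type I receptor and kinase, is on chromosome 9 of hg19 from 101866320 to 101916474. It stood at 119.6 CPM (WT 1), 128 CPM (WT 2), 72.6 CPM (clone 4) and 88.2 CPM (clone 5), and the clones were below both WT libraries. Its log2 ratio was 0.77 (standard error 0.10) against clone 4 and 0.49 (standard error 0.10) against clone 5. TGFBR2, the type II receptor that binds the ligand first, is on chromosome 3 from 30648093 to 30735634. It stood at 111 CPM (WT 1), 129 CPM (WT 2), 155.5 CPM (clone 4) and 138 CPM (clone 5). The clones were above WT, although clone 5 was closer to WT 2 than WT 2 was to WT 1. Its log2 ratio was -0.37 (standard error 0.10) against clone 4 and -0.20 (standard error 0.11) against clone 5, beside -0.21 for WT 1 over WT 2.

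The balance of the receptors shows both shifts within a library. TGFBR1 per kilobase of exon over TGFBR2 per kilobase was 0.920 and 0.851 in WT 1 and WT 2, against 0.400 (clone 4) and 0.547 (clone 5). Per kilobase TGFBR1 was the scarcer receptor transcript in every library, by a small margin in WT and a wider one in the clones. Neither receptor passed the test between the clones. For clone 4 over clone 5 TGFBR1 had a log2 ratio of -0.28 (standard error 0.11, edgeR adjusted p = 0.129) and TGFBR2 one of 0.17 (standard error 0.12, edgeR adjusted p = 0.442).

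**Figure D3:**
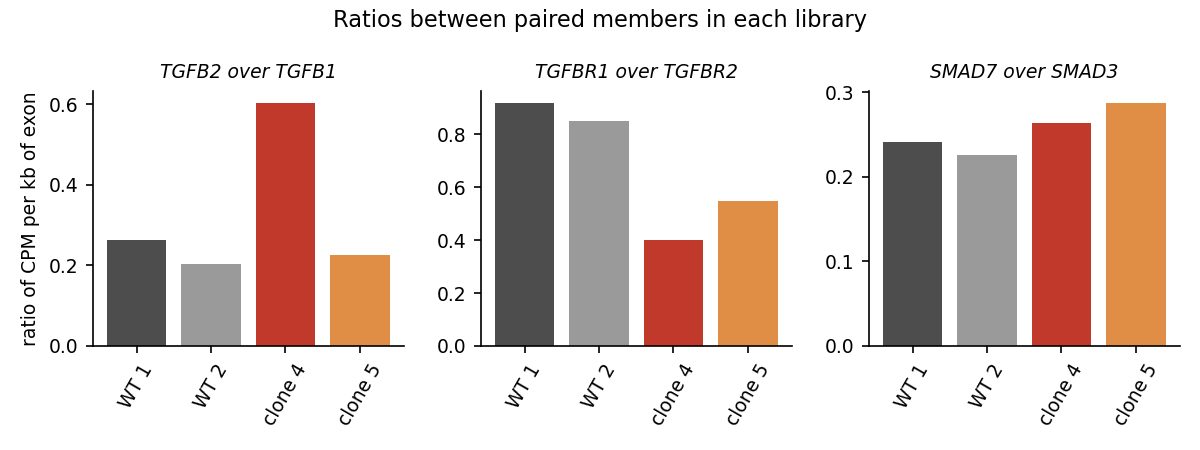
Ratio of CPM per kilobase of exon between paired members in each library (linear axes from 0, 1 bar per library). TGFB2 over TGFB1 is highest in clone 4 (0.604), TGFBR1 over TGFBR2 is lower in both clones (0.400 and 0.547), and SMAD7 over SMAD3 varies least.

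The intracellular members varied little. SMAD3, which carries the signal to DNA, is on chromosome 15 of hg19 from 67356101 to 67487511 and stood at 251 CPM (WT 1), 257 CPM (WT 2), 267 CPM (clone 4) and 246 CPM (clone 5). The groups overlapped, with a log2 ratio of WT over NOCT-KO of -0.01 (standard error 0.09). SMAD7, which binds the activated receptor and blocks it, is on chromosome 18 from 46446223 to 46477335 and stood at 23.8 CPM (WT 1), 22.9 CPM (WT 2), 27.8 CPM (clone 4) and 27.9 CPM (clone 5). The clones were a little above WT and nearly equal to each other (log2 ratio of -0.01 for clone 4 over clone 5, standard error 0.16, edgeR adjusted p = 0.993). SKIL, a co-repressor that holds SMAD complexes inactive, is on chromosome 3 from 170075130 to 170114623. It stood at 279 CPM (WT 1), 282 CPM (WT 2), 260.0 CPM (clone 4) and 252 CPM (clone 5). Its groups did not overlap, but the log2 ratio of WT over NOCT-KO was only 0.13 (standard error 0.08). Between the clones SMAD3 had a log2 ratio of 0.12 (standard error 0.10, edgeR adjusted p = 0.519) and SKIL one of 0.05 (standard error 0.10, edgeR adjusted p = 0.835). SMAD7 per kilobase of exon over SMAD3 per kilobase was 0.241 (WT 1), 0.226 (WT 2), 0.264 (clone 4) and 0.2875 (clone 5). The inhibitor was thus the scarcer transcript of this pair throughout.

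The 3 targets did not move together. PMEPA1, a membrane protein that is induced by TGF-beta and captures receptor-activated SMADs, is on chromosome 20 of hg19 from 56223448 to 56286592. It stood at 299.6 CPM (WT 1), 298 CPM (WT 2), 171 CPM (clone 4) and 192.5 CPM (clone 5). The WT libraries were nearly equal and both clones were clearly lower, with a log2 ratio of 0.80 (standard error 0.09) against clone 4 and 0.64 (standard error 0.09) against clone 5. TGFBI, a secreted matrix protein that cells attach to, is on chromosome 5 from 135364677 to 135399507. It stood at 77.35 CPM (WT 1), 80.6 CPM (WT 2), 41.8 CPM (clone 4) and 48.0 CPM (clone 5). Both clones were again below WT, with a log2 ratio of 0.92 (standard error 0.11) against clone 4 and 0.72 (standard error 0.11) against clone 5.

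CTGF, a matricellular protein now named CCN2 and induced by TGF-beta and by YAP with TEAD factors, went the other way. It is on chromosome 6 of hg19 from 132269316 to 132272512 and stood at 74.98 CPM (WT 1), 72.5 CPM (WT 2), 94.8 CPM (clone 4) and 115.5 CPM (clone 5). Both clones were above WT, clone 5 the more, with a log2 ratio of -0.36 (standard error 0.10) against clone 4 and -0.65 (standard error 0.10) against clone 5. Between the clones no target passed the test. For clone 4 over clone 5 the log2 ratio of PMEPA1 was -0.17 (standard error 0.10, edgeR adjusted p = 0.335), that of TGFBI -0.20 (standard error 0.13, edgeR adjusted p = 0.356) and that of CTGF -0.28 (standard error 0.11, edgeR adjusted p = 0.122).

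**Figure D4:**
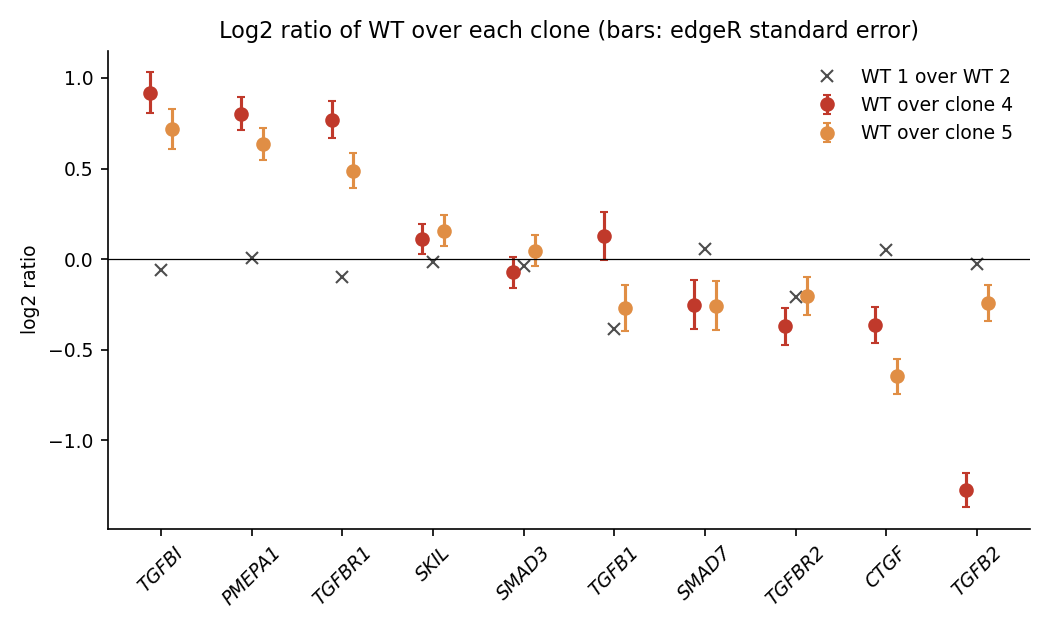
Log2 ratio of WT over clone 4 and of WT over clone 5 for each member, with bars of 1 standard error from edgeR's fit with 3 groups, and crosses for WT 1 over WT 2. TGFBI, PMEPA1 and TGFBR1 lie above 0 against both clones, CTGF lies below 0 against both, and TGFB2 is far below 0 against clone 4 only (-1.27).

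Set on a scale per kilobase of exon, the order of the members changed at the top. PMEPA1 was the most abundant in both WT libraries (52.3 and 52.0 CPM per kilobase), with TGFB1 next (39.1 and 51.2). In clone 4 PMEPA1 was at 29.9 and in clone 5 at 33.6 CPM per kilobase, and TGFB1 led with 41.4 and 54.4. In WT 2 PMEPA1 and TGFB1 were closer to each other than the WT libraries were for TGFB1. CTGF followed TGFB1 in both clones, at 40.55 and 49.4 CPM per kilobase, from 32.1 in WT 1 and 31.0 in WT 2. SKIL was at 31.0 to 34.8 CPM per kilobase in all libraries and SMAD3 at 24.6 to 26.7. SMAD7 was the lowest in WT (6.03 and 5.80 CPM per kilobase), and TGFBI was the lowest in the clones (5.41 and 6.22).

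Likeness of profile was measured as the Euclidean distance of log2 CPM centred over the 4 libraries, against 10046 genes, for the members with the largest log2 ratios. For TGFBI the nearest genes were KLHL13 (distance 0.0733), PMEPA1 (0.113) and INSL4 (0.131). For PMEPA1 they were INSL4 (0.102), TGFBI (0.113) and KLHL13 (0.115), and TGFBR1 ranked 4 from PMEPA1 and 6 from TGFBI. INSL4, a peptide of the insulin family known from the placenta, stood at 46.1 CPM (WT 1), 43.5 CPM (WT 2), 25.1 CPM (clone 4) and 26.8 CPM (clone 5). The genes nearest to TGFB2 were FAM89A (0.104), C8orf83 (0.107) and EDIL3 (0.172), and the member nearest to it was TGFBR2 (0.778) at rank 695. EDIL3, a secreted matrix protein that integrins bind, stood at 4.55 CPM (WT 1), 5.004 CPM (WT 2), 12.65 CPM (clone 4) and 6.35 CPM (clone 5). With 4 libraries such likeness is a description only. PMEPA1, TGFBI and TGFBR1 had been selected for standing apart between WT and NOCT-KO cells in these same libraries. Their nearness to each other is tied to that choice, and nothing is read from it.

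Beyond the members, 101 further genes of the pathway were listed in 5 groups, and 85 were tested. The lists were written with earlier results of these data known, so a share called above that of all genes is no independent evidence. Against NOCT-KO cells as a pair, edgeR called 0 of 85, as it called 0 of 13143 genes in all (0.0%). At an unadjusted p under 0.05 it gave 8 of 85, beside 4.21% of all genes, and DESeq2 called 3 of 85 and 42 genes in all. Against clone 4 edgeR called 22 of 85, beside 11.4% of all genes. Of these, 12 were higher in WT (6.02% of all genes) and 10 lower (5.41%). Against clone 5 it called 12 of 85, beside 3.51% of all genes. Of these, 2 were higher in WT (1.73% of all genes) and 10 lower (1.78%). The median log2 ratio of the 85 was -0.05 against clone 4 and -0.03 against clone 5, where all genes had medians of 0.01 and 0.00. Without the low-count filter edgeR called 7 of the pathway genes against clone 4 and 1 against clone 5. At an unadjusted p under 0.05 there were 38 of 85 against clone 4 and 26 against clone 5, beside 23.7% and 15.6% of all genes. Both clone contrasts share the WT libraries. Between the clones edgeR called 22 of 85, 7 higher in clone 4 (5.73% of all genes) and 15 higher in clone 5 (7.38%).

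Among the commonly cited TGF-beta targets, CDKN1A was higher and COL1A1 lower in both clones. CDKN1A, the cell cycle inhibitor p21, stood at 55.0 CPM (WT 1), 68.2 CPM (WT 2), 89.05 CPM (clone 4) and 112 CPM (clone 5). It was called higher in both clones (log2 ratio -0.53, edgeR adjusted p = 0.0103, against clone 4 and -0.87, edgeR adjusted p = 7.786e-04, against clone 5). COL1A1, a chain of fibrillar type I collagen, went the other way, from 14.3 CPM in WT 1 and 15.7 CPM in WT 2 to 5.71 CPM in clone 4 and 7.74 CPM in clone 5. Its log2 ratio was 1.39 (standard error 0.20, edgeR adjusted p = 3.575e-04) for WT over clone 4, and 0.95 (standard error 0.19, edgeR adjusted p = 0.0113) for WT over clone 5. COL1A1 had been named in earlier results of these libraries, so its call is no independent evidence. Without the low-count filter the calls of CDKN1A and COL1A1 against clone 5 and of CDKN1A against clone 4 were lost.

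Of the 42 targets tested, 12 were called against clone 4 (7 higher in WT, 5 lower, beside 11.4% of all genes called) and 11 against clone 5 (2 higher, 9 lower, beside 3.51%). Several of them moved apart between the clones, and the 4 that follow were chosen after their values were seen. SERPINE2, a secreted protease inhibitor, stood at 54.5 CPM (WT 1), 55.8 CPM (WT 2), 7.38 CPM (clone 4) and 130 CPM (clone 5). ZEB2, a repressor of epithelial genes, stood at 13.6 CPM (WT 1), 10.4 CPM (WT 2), 0.666 CPM (clone 4) and 27.0 CPM (clone 5). Both fell in clone 4 and rose in clone 5. For SERPINE2 the log2 ratio was 2.90 (edgeR adjusted p = 3.687e-09) against clone 4 and -1.24 (adjusted p = 5.697e-06) against clone 5, and for ZEB2 it was 4.16 (adjusted p = 4.329e-07) and -1.17 (adjusted p = 0.00202). COL3A1, a fibrillar collagen chain, was at 187 CPM (WT 1), 206 CPM (WT 2), 26.7 CPM (clone 4) and 199 CPM (clone 5). It fell in clone 4 (log2 ratio 2.88, edgeR adjusted p = 1.201e-09), while against clone 5 the log2 ratio was -0.02 (adjusted p = 0.945). CYR61, a matricellular protein related to CTGF, was at 198 CPM (WT 1), 195.5 CPM (WT 2), 214 CPM (clone 4) and 301 CPM (clone 5), and it passed only against clone 5 (log2 ratio -0.61, edgeR adjusted p = 8.763e-04). The calls of ZEB2 and CYR61 against clone 5 were lost without the low-count filter (adjusted p = 0.172 and 0.11). Clone 4 had the most TGFB2 and the least SERPINE2, ZEB2 and COL3A1 of the 4 libraries, but these targets were picked for their values. Of all 42 targets, 7 were called lower and 5 higher in clone 4 than in WT, so the targets went both ways. A link between TGFB2 and the targets was not tested.

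**Figure D5:**
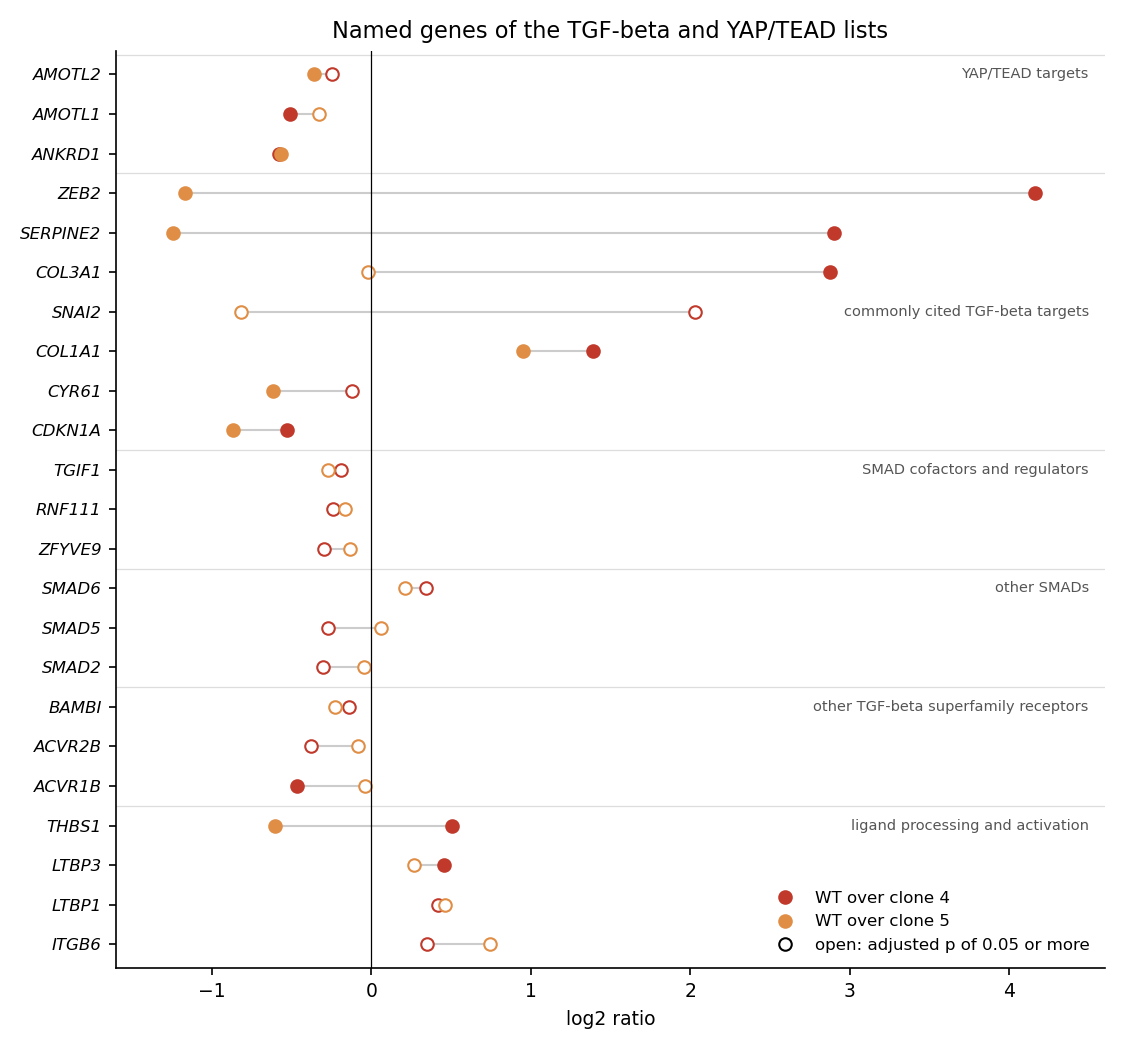
Log2 ratio of WT over clone 4 and of WT over clone 5 for the named genes of the pathway lists and of the YAP/TEAD list, with 1 row per gene and filled points for an edgeR adjusted p under 0.05. CDKN1A, COL1A1 and ANKRD1 are filled on the same side of 0 in both clones, while SERPINE2, ZEB2 and THBS1 are filled on opposite sides.

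Upstream of the receptors, 9 of the 12 listed genes of ligand processing were tested, and 5 were called against clone 4 (4 higher in WT, 1 lower, beside 11.4% of all genes) and 1 against clone 5 (lower in WT, beside 3.51%). Their median log2 ratio of WT over NOCT-KO was 0.22, and that of all genes was -0.00. LTBP3, which holds latent TGF-beta in the matrix, stood at 47.1 CPM (WT 1), 54.75 CPM (WT 2), 37.2 CPM (clone 4) and 42.4 CPM (clone 5), and it passed only against clone 4 (log2 ratio 0.46, edgeR adjusted p = 0.033). That call was lost with DESeq2, without the low-count filter and with clone 5 left out. LTBP1, of the same family, had a log2 ratio of WT over NOCT-KO of 0.44 (standard error 0.15), and ITGB6, a chain of the integrin that frees TGF-beta on epithelia, one of 0.53 (standard error 0.25), and neither passed in any contrast. Without clone 5 the value of ITGB6 was 0.34. THBS1, a matrix protein that can activate latent TGF-beta, was chosen after its values were seen. It stood at 113 CPM (WT 1), 119 CPM (WT 2), 81.9 CPM (clone 4) and 177 CPM (clone 5), with clone 4 below and clone 5 above WT. Its log2 ratio was 0.51 (edgeR adjusted p = 0.00369) against clone 4 and -0.61 (edgeR adjusted p = 0.0019) against clone 5. Neither call of THBS1 passed without the low-count filter (adjusted p = 0.0719 and 0.144).

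Among 9 other receptors of the family that were tested, 3 were called against clone 4 (1 higher in WT, 2 lower, beside 11.4% of all genes) and 0 of 9 against clone 5 (beside 3.51%), where 0 had an unadjusted p under 0.05 in edgeR, beside 15.6% of all genes. ACVR1B, the type I receptor of activin, stood at 45.9 CPM (WT 1), 47.0 CPM (WT 2), 64.1 CPM (clone 4) and 47.7 CPM (clone 5) and rose in clone 4 (log2 ratio -0.47, standard error 0.11, edgeR adjusted p = 0.0118). That call was lost without the low-count filter (adjusted p = 0.0981). ACVR2B, an activin type II receptor, had -0.38 against clone 4 (edgeR adjusted p = 0.0537), and the decoy receptor BAMBI had -0.14 (edgeR adjusted p = 0.565). Of the 6 other SMADs edgeR called 0 against either clone, with 4 at an unadjusted p under 0.05 against clone 4 and 1 against clone 5, beside 23.7% and 15.6% of all genes. SMAD2, the partner of SMAD3, stood at 128.5, 124, 156 and 130.5 CPM in WT 1, WT 2, clone 4 and clone 5 (log2 ratio of WT over clone 4 of -0.30, edgeR adjusted p = 0.0518). SMAD2 and ACVR2B passed the threshold with the other scaling and with halved counts. SMAD5 of the BMP branch had -0.27 and the inhibitory SMAD6 had 0.35 against clone 4 (edgeR adjusted p = 0.0713 and 0.144). Of 19 tested cofactors and regulators, 2 were called against clone 4 (both lower in WT, a share close to the 11.4% of all genes) and 0 against clone 5 (beside 3.51%), where 2 had an unadjusted p under 0.05 in edgeR, beside 15.6% of all genes. The smallest p-values of that list for WT over NOCT-KO belonged to RNF111, a ubiquitin ligase that removes SKIL and SMAD7 (log2 ratio -0.20, standard error 0.10), to the co-repressor TGIF1 (-0.23, standard error 0.12) and to the SMAD anchor ZFYVE9 (-0.22, standard error 0.12), none of which passed. The value of TGIF1 was -0.11 without WT 1 and -0.37 without WT 2, and that of ZFYVE9 was -0.14 without clone 4.

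CTGF is also a target of YAP and TEAD factors, and 10 further targets of these factors were all tested. Against clone 4 edgeR called 4 of 10 and against clone 5 it called 3 of 10, all of them lower in WT, beside 5.41% and 1.78% of all genes called in that direction. The median log2 ratio of WT over NOCT-KO was -0.30 for the list and -0.00 for all genes. The list was not uniform, since 2 of 10 were higher in WT against clone 4 and 3 of 10 against clone 5. Its median log2 ratio was -0.30 against clone 4 and -0.13 against clone 5. ANKRD1, a nuclear ankyrin repeat protein, stood at 153 CPM (WT 1), 133 CPM (WT 2), 213 CPM (clone 4) and 211 CPM (clone 5). Like CTGF it was higher in both clones, with a log2 ratio of -0.58 (standard error 0.10, edgeR adjusted p = 0.00164) against clone 4 and -0.56 (standard error 0.10, edgeR adjusted p = 0.00509) against clone 5. Both calls were lost without the low-count filter. AMOTL1 and AMOTL2, which bind YAP, were each called in a single clone. AMOTL1 had a log2 ratio of -0.51 (edgeR adjusted p = 0.0027) against clone 4 and -0.33 (adjusted p = 0.0881) against clone 5, and AMOTL2 had -0.25 (adjusted p = 0.112) and -0.36 (adjusted p = 0.0481). The AMOTL1 call was lost without the low-count filter (adjusted p = 0.0735), and the AMOTL2 call was lost with DESeq2, without that filter and with clone 4 left out (adjusted p up to 0.266). The difference between the clones was not called for either, with adjusted p of 0.340 and 0.592.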

How the data were processed

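Poly-A RNA of 4 A549 libraries was sequenced on an Illumina instrument. The authors deposited a table of unnormalized counts by gene. Reads were mapped to hg19 according to the paper, and TopHat2 and HTSeq appear in the submitters' processing notes. For versions, annotation and strand, nothing is given in the sources used here. Reads of overlapping or antisense genes cannot be told apart. In each library 99.1% to 99.2% of nonzero counts were even, so 2 counts may stand for 1 fragment. Of 23368 lines, 28 with a date in place of a symbol (0.274% of counts) were left out of library sizes and tests, and 0 columns were left aside. Depth was 36873556 to 41963070 counts per library.

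Counts were scaled by TMM, filtered by edgeR's filterByExpr (minimum count 10, minimum total 15) and tested with the quasi-likelihood test of edgeR 4.0.16 in R 4.3.3, with Benjamini-Hochberg adjustment over 13143 genes at 0.05. WT was compared with NOCT-KO in a fit with 2 groups (biological coefficient of variation 19.7%), and the clones with WT and with each other in a fit with 3 groups (8.33%), where each lone clone library is assumed to vary like the WT pair. A check on simulated data drew every library with the spread that the fit had estimated. It therefore cannot show whether a lone clone varies like the WT pair. Log2 ratios are of WT over the clone unless stated. Symbols were placed on hg19 with GENCODE v44lift37, as given (19556) or by an older symbol (1908), and 1876 were not matched. Exon lengths are unions over transcripts. Promoters are from RefSeq.

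The members and lists were chosen with earlier results of these data known. The genes named are the members, NOCT, the 3 of each list with the smallest p for WT against NOCT-KO, those called in both clones in the same direction, and the 3 profiles nearest to each of TGFB2, TGFBI and PMEPA1. Other genes were chosen after their values were seen, as stated beside them. A gene that this rule names is not reported here, though the list counts include it. The lists cover ligand processing, other receptors, other SMADs, cofactors and regulators, and commonly cited targets (the 5 pathway lists), and the ID family and YAP/TEAD targets. Alternatives were RLE scaling, DESeq2 1.42.0, no low-count filter, halved counts and each library left out.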

Additional observations from a re-analysis of the deposited data

Results flagged for a closer look

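The following genes differed between the NOCT-KO clones, by edgeR's test of clone 4 over clone 5 with Benjamini-Hochberg adjustment over all genes, where 13.1% of genes passed. Higher in clone 4 were TGFB2 (log2 ratio 1.03, adjusted p = 2.864e-05), ID1 (1.48, adjusted p = 2.127e-06), ID3 (1.14, adjusted p = 4.033e-06) and ACVR1B (0.43, adjusted p = 0.039). Higher in clone 5 were ZEB2 (log2 ratio -5.33, adjusted p = 3.875e-08), SERPINE2 (-4.14, adjusted p = 1.406e-10), COL3A1 (-2.90, adjusted p = 1.274e-09), SNAI2 (-2.85, adjusted p = 0.0197), THBS1 (-1.11, adjusted p = 1.151e-05) and CYR61 (-0.49, adjusted p = 0.00434). SNAI2, an epithelial repressor like ZEB2, stood at 1.56 CPM (WT 1), 0.722 CPM (WT 2), 0.277 CPM (clone 4) and 2.02 CPM (clone 5). ZEB2, SERPINE2, COL3A1, SNAI2, THBS1, CYR61 and ID1 were chosen after their values were seen, so their calls are no independent evidence. Other genes of the pathway lists also passed this test and are not named here. The calls of ACVR1B and SNAI2 were lost with DESeq2 and without the low-count filter, and that of CYR61 without the filter. Each clone is 1 library, so differences between clones and between cultures cannot be told apart.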

How the results depend on the processing

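No paired analysis was possible because the WT libraries are numbered 1 and 2 and the clones 4 and 5, which share no number for a replicate block. With DESeq2 the genes called were 42 in place of 0 for WT against NOCT-KO, 952 in place of 1502 for clone 4, 291 in place of 461 for clone 5 and 1127 in place of 1723 between the clones, and 3 in place of 0 pathway genes were called for WT against NOCT-KO. Without the low-count filter 366 genes were called for clone 4, 29 for clone 5 and 496 between the clones, and of the pathway genes 7, 1 and 5 in place of 22, 12 and 22. With 1 library left out, WT against NOCT-KO gave 0 to 1184 genes (363 without clone 4, 1184 without clone 5) and 0 to 18 pathway genes (12 without clone 4, 18 without clone 5). The log2 ratio of WT over NOCT-KO of ID3 went from -0.22 to 0.45 without clone 4 and to -0.69 without clone 5. For the members, the sign of WT over NOCT-KO was kept under all 8 alternatives except for TGFB1 (-0.29 to 0.12) and SMAD3 (-0.08 to 0.04), each near 0, and TGFB2 ranged from -1.28 without clone 5 to -0.24 without clone 4. Without a WT library the clone contrasts have no residual degrees of freedom and are values with no test. Without the low-count filter, SERPINE2 alone of the named genes called against clone 5 still passed. The cause of these changes was not tested.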

Other observations

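The ID genes, inhibitors of basic helix-loop-helix factors and targets of the BMP branch, were higher in clone 4 than in WT. Of 4 tested, edgeR called 3 against clone 4, all lower in WT, and 2 against clone 5, both higher in WT, beside 11.4% and 3.51% of all genes. ID3 stood at 201 CPM (WT 1), 206 CPM (WT 2), 326 CPM (clone 4) and 148 CPM (clone 5). ID1, chosen after its values were seen, stood at 89.8 CPM (WT 1), 78.5 CPM (WT 2), 149 CPM (clone 4) and 53.3 CPM (clone 5). For both genes clone 4 was above and clone 5 below both WT libraries. The log2 ratio of ID3 was -0.68 (edgeR adjusted p = 1.161e-04) against clone 4 and 0.46 (adjusted p = 0.0102) against clone 5, and that of ID1 was -0.82 (adjusted p = 1.129e-04) and 0.66 (adjusted p = 0.00351). Without the low-count filter the calls of both genes against clone 5 were lost (adjusted p = 0.172 for ID3 and 0.201 for ID1). ID4, at 0.379 CPM (WT 1), 0.385 CPM (WT 2), 1.55 CPM (clone 4) and 0.673 CPM (clone 5), passed against clone 4 (log2 ratio -2.02, adjusted p = 0.0385), a call that was lost with DESeq2, without the low-count filter and with clone 5 left out. ID2 passed in neither contrast (-0.26, adjusted p = 0.153, and -0.01, adjusted p = 0.980).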
